A study of Mus musculus with 4 samples.

Results

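Circular RNAs (circRNAs) were compared between the lung library of newborn C57BL/6 mice at day 7.5, the alveolar stage, and the libraries of 3 prenatal stages of the same strain: pseudoglandular at embryonic day 14.5, canalicular at embryonic day 16.5 and terminal sac at embryonic day 18.5. Each stage has 1 library of total RNA from whole lung, so all 4 libraries of the series enter, and the number of animals behind each is not stated in the labels. No treatment or mutation is named for any of them. Circles were counted as junction reads, the reads that cross a back-splice, and each count was divided by the summed junction reads of its library to give a share. A circle was called higher when its alveolar share was at least 2-fold above the highest prenatal share, and lower when it was at least 2-fold below the lowest. Since no stage was repeated, the differences lack a replicate check, and p-values are not given. The 3 prenatal libraries are different stages, so the comparison is with their range and not with their mean.

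CircRNAs form when the spliceosome joins the end of a downstream exon to the start of an upstream exon of the same transcript, which leaves a closed ring without free ends. Such rings escape the exonucleases that degrade linear RNA from its ends, and many are long-lived and become abundant in cells that divide rarely. In the lung, the weeks around birth bring the surfactant-producing type 2 cells, the flat type 1 cells of gas exchange, a dense capillary bed and the elastic fibres laid down by mesenchymal cells as the airspaces are subdivided. RNA from whole lung mixes these cells, so fewer cells of a type and less RNA per cell cannot be told apart here.

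Of 13499 circRNAs in the series, 1977 had 10 or more junction reads over the 4 libraries and were compared. Of these, 126 (6.37%) were higher in the alveolar library and 83 (4.20%) were lower. An unlisted circle was set to 3 reads when it bounded a fold, and a circle absent from a prenatal list could not be called lower, so the rule is not symmetric. A fold written "at least" rests on this setting and on exact coordinates. Among the 1109 circles that all 3 prenatal libraries list, the 83 lower circles were 7.48%. The 95% interval against the nearest prenatal library excluded 1 for 54 higher (2.73%) and 21 lower circles (1.06%). These intervals cover counting error only, and not variation between animals or libraries. PCR copies of a molecule are counted as separate reads, so the intervals may be too narrow even for counting error. The summed junction reads were 25983, 31218, 36156 and 28332 in stage order, so 3 reads stand for 0.83 to 1.15 per 10000. Scaling by the median of ratios shifts the alveolar values up by 0.21 on the log2 scale, and the split of 126 and 83 then became 172 and 59.

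The junctions of several leading circles without the repeats or few read patterns described in the next paragraph, and of an uncalled Strn3 circle for comparison, are printed with the last bases of the last exon in lower case and the first bases of the first exon in capitals, 5′ to 3′, from GENCODE M21 transcripts on GRCm38. A read must span this join to be counted, so these letters define what was measured. The Pde5a circles lie on the plus strand and Trpc6 too, whereas Strn3 and Hdgfl3 lie on the minus strand and Bub1b on the plus strand.
Pde5a exons 7 to 12, chr3:122781567-122818067: cagatgaaacatgagGACTCTTTCTCTCGT
Pde5a exons 8 to 12, chr3:122794260-122818067: cagatgaaacatgagGGAGCAAGATGCAAA
Trpc6 exons 4 to 10, chr9:8634047-8658377: cttgacaaaaatcagTTTGTGGCTCATCCA
Strn3 exons 2 to 16, chr12:51619814-51661713: ttgacaataaaacggGCACGGATTGCATTT
Strn3 exons 2 to 7, chr12:51647994-51661713: atggtacagaatgggGCACGGATTGCATTT
Bub1b exons 17 to 19, chr2:118631759-118635277: tgctccacccttcagAAGATGCTATTCAGT
Hdgfl3 exons 2 to 5, chr7:81893799-81905636: aaagccggtgaagggATTGATGAACTCCCA
The Pde5a pair joins the same donor to different acceptors, and the Strn3 pair joins the same acceptor to different donors.

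A second set of sequences bears on the largest counts. Several higher circles have a direct repeat at their ends, a stretch that occurs both where the first exon starts and where the last exon ends. The repeat is in capitals below, with 8 bases on each side from the same transcripts.
Eln first end: aagcagccAAGTATGGTGCTGGgggagctg
Eln last end: aagctgctAAGTATGGTGCTGGaggagctg
Crip2 first end: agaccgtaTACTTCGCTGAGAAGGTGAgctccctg
Crip2 last end: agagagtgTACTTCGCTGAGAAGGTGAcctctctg
The Eln repeat (chr5:134715684-134719222, minus strand, exons 17 to 22) is 14 bases long and the Crip2 repeat (chr12:113143459-113144297, plus strand, exons 2 to 4) 19 bases. Circles with a direct repeat of 6 or more bases are called repeat-end here. Circles with 10 or more reads in a library but under 0.4 distinct alignment patterns per read, with reads capped at 100, are called few-pattern. Of the higher circles 14 (11.1%) had at least 1 of these features, against 1 lower circle (1.2%) and 4.2% of all circles compared. Their part in the results was not tested.

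Together the 126 higher circles held 1.45%, 1.70%, 2.43% and 16.4% of junction reads from the pseudoglandular to the alveolar library. Without repeat-end and few-pattern circles the shares were 1.42%, 1.60%, 2.22% and 8.02% of the full totals. Without the Eln circle alone the alveolar share was 10.5%. The rule that chose the circles fixes that the alveolar share is the highest, and nothing is read from that. The 83 lower circles held 5.93%, 5.64%, 5.07% and 1.22% of the reads. Repeat-end and few-pattern circles as a whole made up 2.79%, 2.65%, 4.18% and 11.6% of reads in stage order.

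**Figure D1:**
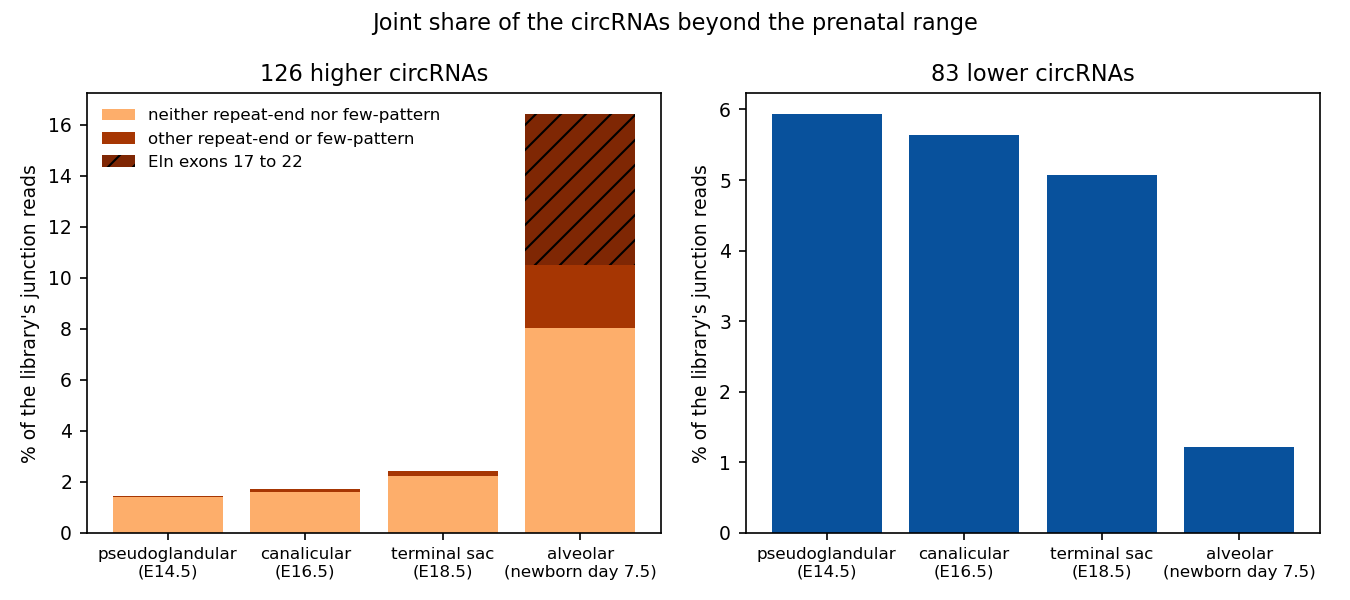
Joint share of junction reads (%) of the 126 higher and 83 lower circRNAs in each of the 4 libraries, with bars split by repeat-end or few-pattern circles and the Eln circle of exons 17 to 22 hatched. The alveolar bar of the higher circles reaches 16.4%, of which 8.02% comes from circles with neither feature.

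Genes of the extracellular matrix host 7 of the 15 leading higher circles, and 5 of these 7 circles, from Eln, Col1a2, Col5a1, Col3a1 and Hmcn1, reached the read minimum through the alveolar library, so no other call was open to them. Elastin (Eln), the core protein of elastic fibres, gave 0, 0, 0 and 1646 junction reads for exons 17 to 22, at least 503-fold higher. The prenatal lists lack this circle by its exact coordinates, and the Eln circles that are neither repeat-end nor few-pattern summed to 3, 2, 12 and 13 reads. Col1a2, a chain of fibrillar collagen I, had 0, 0, 0 and 124 reads for exons 8 to 10 (chr6:4515481-4516014), at least 37.9-fold higher. Col5a1, a chain of the fibril-regulating collagen V, had 0, 0, 0 and 50 reads for exons 26 to 32, and Col3a1, the collagen III chain, 0, 0, 0 and 38 for exons 32 to 33. These circles were at least 15.3-fold and at least 11.6-fold higher, and all 4 are repeat-end or few-pattern.

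The next matrix circles were listed before birth as well, or come from basement-membrane genes. Hmcn1, which encodes the matrix protein hemicentin-1, had 0, 0, 0 and 38 reads for exons 79 to 80, at least 11.6-fold higher. Col4a1, a chain of basement-membrane collagen IV, had 6, 0, 10 and 38 reads for exons 21 to 23, 4.85-fold above the terminal sac share (95% interval 2.37 to 10.9). Fbn1, the fibrillin of microfibrils, had 0, 8, 28 and 57 reads for exons 47 to 48, 2.60-fold higher (1.63 to 4.24). The Fbn1 circle was thus more abundant at each later stage, while the Hmcn1 circle was listed in the alveolar library alone. These 3 circles are few-pattern, and the Col4a1 circle also has a repeat of 9 bases. Other repeat-end or few-pattern circles of these genes were high before birth instead. Col4a1 exons 24 to 27 had 0, 101, 156 and 0 reads and Col4a1 exons 23 to 28 had 0, 0, 110 and 0. Eln exons 19 to 22, which share an end with the higher Eln circle, had 0, 0, 36 and 3. None of these circles that were high before birth has both ends at exon boundaries. The Col4a1 circle of exons 35 to 39, neither repeat-end nor few-pattern, had 277, 412, 583 and 722 and was not called.

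Summed per host gene, 7 of 22 matrix hosts compared were higher and 0 lower, where 6.96% of all 1854 hosts compared were higher and 4.42% lower. The 7 were Eln, Col1a2, Col5a1, Fbn1, Hmcn1, Frem1 and Ltbp2. Most of their alveolar reads come from repeat-end or few-pattern circles: without these Col5a1 had 17, 15, 16 and 18 reads, Fbn1 was at 0 in every library, Hmcn1 had 4, 0, 2 and 7, and Col1a2 had 0, 0, 0 and 2. Ltbp2, a latent TGF-beta binding protein gene, had 0, 2, 0 and 8 on that count. With all circles Hmcn1 had 4, 0, 2 and 75 reads and passed the read minimum only through the alveolar ones. Col1a2 had 17, 0, 0 and 171, and unlisted prenatal stages barred a lower call for both Hmcn1 and Col1a2. Frem1, a basement-membrane protein gene, had 11, 9, 9 and 34 reads (2.83-fold, 1.4 to 6.2), of which 11, 9, 9 and 31 came from circles with neither feature. Col4a1, the matrix host with most reads, had 298, 608, 948 and 896 and stayed within 2-fold of its prenatal range. The whole list held 2.09%, 2.52%, 3.14% and 10.9% of junction reads. With repeat-end and few-pattern circles taken out of the list and the totals it held 1.75%, 1.68%, 1.98% and 3.44%. Its median log2 difference from the prenatal median was 0.90, beside -0.13 over all hosts compared.

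Circles of alveolar epithelial genes came next. Lamp3, a protein of the lamellar bodies in which type 2 cells store surfactant, had 0, 6, 47 and 83 reads for exons 2 to 5 (chr16:19673391-19701382), 2.25-fold above the terminal sac share (1.56 to 3.3). A second Lamp3 circle of exons 4 to 5 ends at the same donor and had 0, 0, 17 and 27 reads, 2.03-fold higher (1.07 to 3.96). Neither is repeat-end or few-pattern, and both were listed in the last prenatal library. Sftpb, the gene of surfactant protein B, had 0, 0, 0 and 108 reads for exons 9 to 11, at least 33-fold higher. Slc34a2, the phosphate transporter of type 2 cells, had 0, 0, 0 and 27 reads for a circle from exon 7 to exon 10, at least 8.25-fold higher. The ends of this Slc34a2 circle are not both at exon boundaries. The Sftpb circle is few-pattern and the Slc34a2 circle has a repeat of 7 bases. Both reached the minimum of 10 reads through the alveolar library, so a call of higher was the only one open to them.

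Of 15 type 2 markers 9 hosted a listed circle, 6 were compared and 3 were higher, Lamp3, Sftpb and Slc34a2. Of all hosts compared 6.96% were higher. Sftpc, the surfactant protein C gene and the most abundant type 2 host, had 0, 0, 376 and 521 reads and lay 1.77-fold above the terminal sac share (1.55 to 2.02), short of the 2-fold threshold. Without repeat-end and few-pattern circles Sftpc had 0, 0, 4 and 0 reads. Atp8a1, a phospholipid flippase gene, had 2, 10, 31 and 12 reads, and Etv5, a transcription factor of type 2 cells, 0, 18, 6 and 0. The markers thus did not move as 1 block, since the alveolar Atp8a1 and Etv5 counts lie under the terminal sac ones. The list held 0.0231%, 0.109%, 1.32% and 2.75% of reads. With repeat-end and few-pattern circles taken out of the list and the totals it held 0.0238%, 0.112%, 0.309% and 0.487%. Its median log2 difference was 5.07, or 3.82 with unlisted hosts at their bound.

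Type 1 cell markers were thinly covered, with 5 of 14 listed and 3 compared. Radil, a Rap effector, had 5, 0, 0 and 19 reads (3.48-fold higher, 1.26 to 11.9), and Rtkn2 had 0, 0, 7 and 12 (2.19-fold, 0.794 to 6.56). Lmo7, a LIM-domain scaffold gene, had 0, 5, 11 and 11 and was not called. With unlisted prenatal stages neither Radil nor Rtkn2 could have been called lower, and the alveolar reads took both past the read minimum. The list held 0.0308%, 0.0160%, 0.0498% and 0.169% of reads, with a median of 4.52 (1.88 at the bound). For airway epithelium 1 of 3 compared hosts was higher, the chloride channel gene Cftr with 2, 0, 3 and 7 reads. Cftr was likewise carried past the minimum by its alveolar reads, and an unlisted stage barred a lower call. Of all hosts compared 6.96% were higher. The airway list held 0.0918% of alveolar reads against 0.0608% in the terminal sac library, with a median of 1.46 (0.88 at the bound). Of 7 transcription-factor hosts of lung epithelium and its progenitors 0 were called, led by Nfix with 134, 195, 176 and 206 reads. That list held between 0.797% and 0.981% of reads in the 4 libraries, with a median of -0.27 (-0.71 at the bound).

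**Figure D2:**
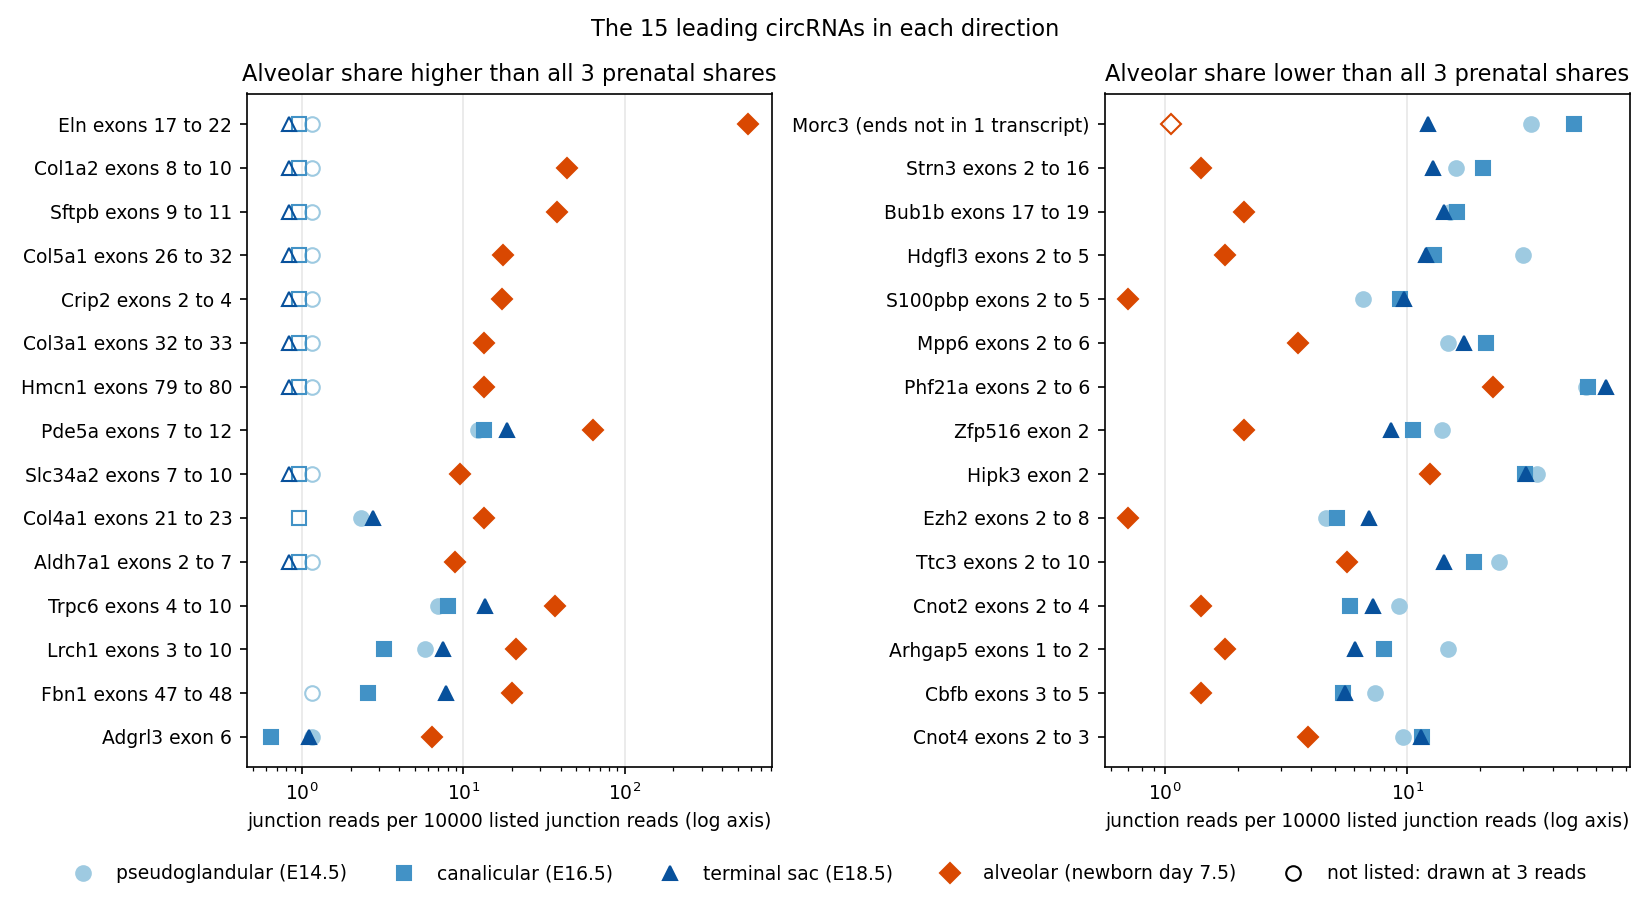
Junction reads per 10000 listed junction reads (log axis) in each of the 4 libraries for the 15 leading higher and 15 leading lower circRNAs, with open symbols for unlisted circles drawn at 3 reads. Of the higher circles 9 have no prenatal symbol above the 3-read level, among them Eln at the top, while Pde5a, Trpc6 and Lrch1 are seen in every library.

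Genes of the smooth-muscle and pericyte list host higher circles that every library lists. Pde5a, the cyclic-GMP phosphodiesterase of vascular smooth muscle, had 32, 42, 67 and 180 reads for exons 7 to 12, 3.43-fold above the terminal sac share (2.58 to 4.61). Exons 8 to 12 of the same gene gave 16, 19, 27 and 71 reads (3.36-fold, 2.13 to 5.44). Exons 8 to 11 gave 12, 16, 30 and 51 (2.17-fold, 1.36 to 3.53). Exon 2 alone (chr3:122747889-122748477) gave 63, 82, 82 and 159 reads, 2.14-fold above the canalicular share (1.63 to 2.82). Thus 4 of the 10 Pde5a circles compared were higher, from separate and overlapping parts of the gene, and those 4 have neither a repeat nor few patterns. The most abundant circles that start at exon 4 were not called, with 5, 10, 8 and 17 reads for exons 4 to 12 and 0, 13, 10 and 12 for exons 4 to 11. As a host Pde5a had 157, 211, 255 and 516 reads, 2.58-fold higher (2.22 to 3.01).

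Trpc6, a cation channel of smooth muscle, had 18, 25, 49 and 104 reads for exons 4 to 10, 2.71-fold above the terminal sac share (1.91 to 3.89). Prkce, the gene of protein kinase C epsilon, had 7, 12, 25 and 48 reads for exons 7 to 10 (2.45-fold, 1.48 to 4.15). The share of both circles was larger at each later prenatal stage and largest in the alveolar library. With Pde5a they were the 3 of 5 hosts called higher in the smooth-muscle and pericyte list, and 0 were lower. This list, like the others, was chosen with earlier results of these data known, so its count is a description only. Of all hosts compared 6.96% were higher and 4.42% lower. Myocd, a co-activator of smooth-muscle genes, had 8, 6, 16 and 13 reads, and the smooth-muscle myosin gene Myh11 had 3, 0, 2 and 5. Neither was called as a host, although a Myocd circle of exons 8 to 9 with 0, 2, 2 and 7 reads was, at least 2.14-fold higher. That circle passed the read minimum only through its alveolar reads, and an unlisted stage barred a lower call. The list held 0.754%, 0.820%, 0.993% and 2.44% of reads, and 0.728%, 0.796%, 0.987% and 2.67% with repeat-end and few-pattern circles taken out of the list and the totals, with a median of 1.49 (1.43 at the bound).

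Endothelial hosts were called higher in 3 of 8 cases and lower in 0, beside 6.96% and 4.42% of all hosts compared. Pecam1, an adhesion molecule of endothelial cells, had 3, 19, 22 and 39 reads as a host (2.26-fold, 1.28 to 4.14), with 0, 8, 13 and 27 of them from the circle of exons 8 to 13 (chr11:106679549-106685248). Tek, the angiopoietin receptor gene, had 3, 0, 2 and 12 reads (3.67-fold, 0.990 to 20.3), and Calcrl, an adrenomedullin receptor gene, 0, 0, 0 and 14, at least 4.28-fold higher. With unlisted prenatal stages neither Tek nor Calcrl could have been called lower, and the alveolar reads took both past the read minimum. Prex2, a Rac exchange factor with most reads of the list, had 2, 5, 55 and 63 and did not reach 2-fold above the terminal sac share, and Ldb2 had 18, 13, 21 and 7. The list held 0.185%, 0.144%, 0.340% and 0.604% of reads, with a median of 1.62 (1.66 at the bound). In the mesenchyme and fibroblast list 1 of 4 hosts was higher, the cytoskeletal linker gene Macf1 with 5, 21, 44 and 74 reads (2.15-fold, 1.46 to 3.19). That list held 0.0346%, 0.119%, 0.216% and 0.378%, with a median of 1.83 (1.53 at the bound). Its reads were 9, 37, 78 and 107, so most came from Macf1, and its share largely follows this 1 gene.

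Other leading higher circles came from genes outside these groups. Lrch1, a leucine-rich repeat gene, had 15, 10, 27 and 60 reads for exons 3 to 10 (chr14:74807474-74835775), 2.84-fold higher (1.77 to 4.65). Adgrl3, a latrophilin-type adhesion receptor, had 3, 2, 4 and 18 reads for exon 6 (5.50-fold, 1.61 to 29.2), and 3 of its 5 circles compared were higher. Crip2, a LIM-domain protein gene, had 0, 0, 0 and 49 reads, at least 15-fold higher, and Aldh7a1, an aldehyde dehydrogenase of lysine breakdown, 0, 0, 0 and 25, at least 7.64-fold higher. Lrch1 and Adgrl3 were seen in every library, whereas Crip2 is repeat-end and Aldh7a1 few-pattern. The Crip2 and Aldh7a1 circles reached the read minimum through the alveolar library, so no other call was open to them. Insr, the insulin receptor gene, had 21, 32, 40 and 63 reads for exon 2, 2.01-fold higher (1.33 to 3.07), which puts it just inside the threshold. Smad6, an inhibitory Smad of BMP signalling, had 2, 0, 3 and 14 reads, at least 5.14-fold higher. All 3 higher Adgrl3 circles and the Smad6 circle also passed the read minimum only through their alveolar reads. Unlisted prenatal stages barred a lower call for Smad6 and for the Adgrl3 circles of exons 12 to 15 and 8 to 10. The Lamp3, Prkce, Pecam1, Insr and Smad6 circles stand outside the leading 15 and were chosen after their values were seen.

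A circle without a deposited host was also among the highest and was likewise chosen after its values were seen. It lies at chr9:16374949-16378254 and matches exon 2 of Fat3, an atypical cadherin gene, in GENCODE M21. Its counts were 18, 9, 28 and 209, 9.53-fold above the nearest prenatal share (6.40 to 14.7). It was listed in all 4 libraries. The junction ratio is the share of junction reads among junction and linear reads at the same ends, with each junction read counted 2 times. For this circle it was 0.429, 0.353, 0.509 and 0.585.

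The lower circles are described by what their hosts are known to do. Bub1b, a kinase of the spindle checkpoint, had 39, 50, 51 and 6 reads for exons 17 to 19, 6.66-fold below the lowest prenatal share (2.86 to 19). Ezh2, the methyltransferase of Polycomb complex PRC2, had 12, 16, 25 and 2 reads for exons 2 to 8 (6.54-fold, 1.46 to 60.2) and 50, 28, 21 and 7 for exons 2 to 15 (2.35-fold, 0.963 to 6.55). Among the prenatal libraries the first Ezh2 circle had its highest share, and the second its lowest, in the terminal sac one. The Ezh2 circle of exons 2 to 3 had 81, 86, 58 and 38 reads and was not called. Phf21a, a subunit of a histone demethylase complex, had 142, 174, 238 and 64 reads for exons 2 to 6, 2.42-fold lower (1.79 to 3.3). Zfp516, a zinc-finger gene, had 36, 33, 31 and 6 reads for exon 2, 4.05-fold lower (1.66 to 11.9). Morc3, a chromatin-associated ATPase gene, had 84, 152, 44 and 0 reads for a circle whose ends are not both in exons of 1 annotated transcript (chr16:93847276-93853217), at least 11.5-fold lower. A neighbouring Morc3 junction that starts 12 bases away had 10, 16, 0 and 0, and the Morc3 circle of exons 6 to 8 had 3, 12, 34 and 19.

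As hosts, 2 of 16 cell-cycle genes were lower and 0 higher: Bub1b with 58, 61, 68 and 6 reads (8.88-fold, 3.88 to 25) and Top2a, the topoisomerase of dividing cells, with 10, 17, 11 and 2 (4.31-fold, 0.941 to 40). The list held 1.65%, 1.56%, 0.960% and 0.664% of reads, with a median log2 difference of -0.80 (-0.85 at the bound). The alveolar share was the lowest of the 4, and the terminal sac share was already below the other prenatal ones. Of all hosts compared 4.42% were lower and 6.96% higher. Of 33 chromatin hosts 1 was lower, Jarid2 of the Polycomb complex with 14, 16, 12 and 4 reads. That list held 3.89%, 3.75%, 3.05% and 2.69%, with a median of -0.53 (-0.49 at the bound).

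The remaining leading lower circles have hosts of varied roles. Strn3, a striatin scaffold of phosphatase complexes, had 41, 64, 46 and 4 reads for exons 2 to 16, 9.01-fold lower (3.29 to 34.5). Hdgfl3, a growth-factor-related gene, had 78, 40, 43 and 5 reads for exons 2 to 5, 6.74-fold lower (2.67 to 21.8). Mpp6, a membrane-associated guanylate kinase scaffold gene, had 38, 66, 62 and 10 for exons 2 to 6 (4.14-fold, 2.03 to 9.33). In these 3 the alveolar count lay under every prenatal count. S100pbp had 17, 29, 35 and 2 reads for exons 2 to 5 (9.27-fold, 2.2 to 82.7), and 17, 29, 51 and 2 when junctions within 5 bases were merged. Cnot2 and Cnot4 belong to the CCR4-NOT complex, which shortens poly(A) tails. Their circles had 24, 18, 26 and 4 reads (4.08-fold, 1.35 to 16.6) and 25, 36, 41 and 11 (2.48-fold, 1.18 to 5.58). Arhgap5 had 38, 25, 22 and 5 for a circle that starts inside exon 1 and ends with exon 2 (3.45-fold, 1.27 to 11.7). Cbfb, the partner of RUNX factors, had 19, 17, 20 and 4 for exons 3 to 5 (3.86-fold, 1.26 to 15.8), and the ubiquitin ligase gene Ttc3 had 62, 59, 51 and 16 for exons 2 to 10 (2.50-fold, 1.40 to 4.69).

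Hipk3, a kinase gene known for an abundant circle of its exon 2, showed that circle (chr2:104470749-104471847) at 89, 95, 111 and 35 reads, 2.46-fold below the lowest prenatal share (1.66 to 3.74). The linear reads at its ends were 447, 501, 607 and 605, so the junction ratio was 0.285, 0.275, 0.268 and 0.104. The 3 prenatal ratios lie close together and the alveolar one apart from them. Of all hosts compared 4.42% were lower and 6.96% higher. Among 23 widely described circRNA hosts compared, 2 were lower, Hipk3 and the mismatch-repair gene Pms1 with 51, 46, 25 and 7 reads, and 0 were higher. That list held 10.4%, 10.1%, 8.82% and 8.09% of reads, with a median of -0.51 (also -0.51 at the bound).

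**Figure D3:**
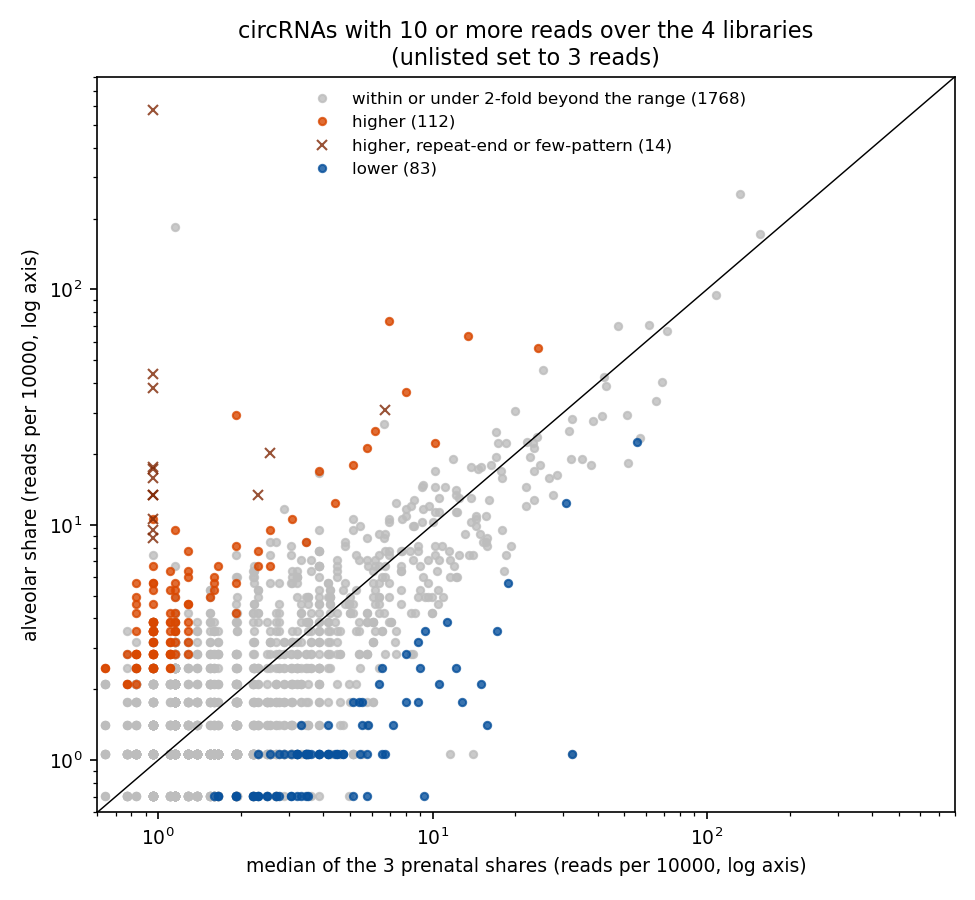
Alveolar share against the median of the 3 prenatal shares, both in reads per 10000 on log axes, for the 1977 circRNAs compared, with higher circles in orange, lower in blue and higher circles with a repeat or few alignment patterns as crosses. Of the crosses, 14 in all, most lie at the left where the prenatal median is an unlisted circle at 3 reads. The lower circles lie below the diagonal of equal shares, as the rule requires.

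Within a host, circles that share a splice site could differ in call. Of all 1977 circles compared 1768 were called neither way, so a partner called neither way is the usual case. Of the 124 higher circles with a host, 40 shared an end with another circle that was compared, and for 35 of them at least 1 such partner was called neither way. Of the 83 lower circles, 50 shared an end, 49 of them with a partner called neither way. Strn3 shows this most plainly, since its circles listed here start at exon 2 with the same acceptor. Exons 2 to 16 were 9.01-fold lower, and exons 2 to 8, with 26, 21, 19 and 3 reads, were 4.96-fold lower (1.46 to 26.2). Exons 2 to 7 had 247, 349, 389 and 268 reads and exons 2 to 15 had 50, 70, 38 and 23, and neither was called. The most abundant Strn3 circle, at 95.1, 112, 108 and 94.6 reads per 10000, thus lay next to its lowest prenatal share, while the lower circles with the same acceptor and other donors were at least 2-fold below theirs. Ttc3 exons 2 to 11 (175, 161, 235 and 95 reads) and a circle inside Arhgap5 exon 1 (180, 161, 89 and 52) were likewise not called beside their lower partners.

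In 5 hosts circles were called in both directions: Kansl1l, Adgrl2, Ccser2, Rabep1 and Srbd1. Kansl1l, a paralogue of a histone-acetylation scaffold gene, had 19, 33, 34 and 10 reads for exons 2 to 5, 2.07-fold lower (0.917 to 4.99). A second circle (chr1:66762048-66807604) had 9, 14, 16 and 0, at least 3.27-fold lower. Another (chr1:66772906-66807604) had 2, 4, 3 and 16, 4.41-fold higher (1.42 to 18.1). This higher circle shares 1 end with each of the lower ones, and its junction ratio was 0.0176, 0.0184, 0.0220 and 0.164. For the other 4 hosts each higher circle had 8 alveolar reads and an interval that includes 1. The higher circles of Kansl1l, Adgrl2, Rabep1 and Srbd1 passed the read minimum only through their alveolar reads. An unlisted prenatal stage also barred a lower call for those of Adgrl2, Rabep1 and Srbd1.

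**Figure D4:**
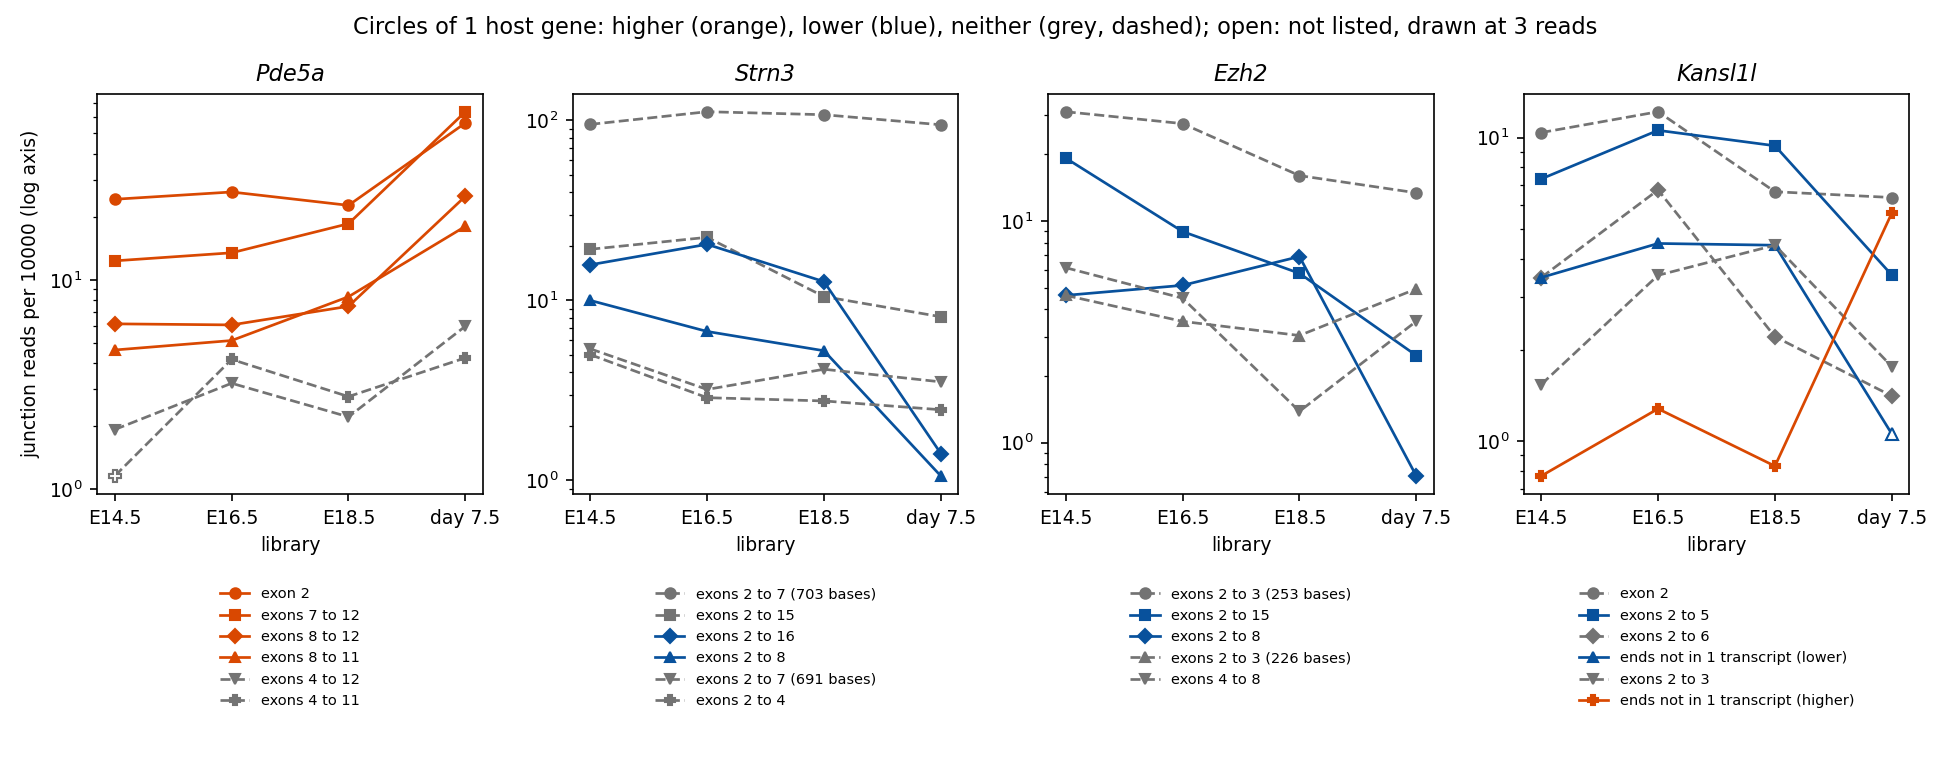
Junction reads per 10000 (log axis) by library for up to 6 circles with most reads of Pde5a, Strn3, Ezh2 and Kansl1l, 1 line per circle, coloured by call, with unlisted circles drawn open at 3 reads. The 4 orange Pde5a lines turn up together at day 7.5, while in Strn3 the lines of exons 2 to 16 and 2 to 8 drop and that of exons 2 to 7 stays near 100 reads per 10000.

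Linear reads at the same ends are not used by the rule. Over the 33 higher circles listed in all 4 libraries the median log2 difference of non-junction reads, alveolar over the prenatal median, was 0.50, and 28 of the 33 lay above that prenatal median. Over the 65 lower circles listed in all 4 it was -0.24, with 21 above, and over the 797 called neither way -0.08, with 360 above. The corresponding junction-read medians, which the rule fixes, were 1.81, -1.82 and -0.13. The linear medians have the sign of the calls and are smaller in size.

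The junction ratio could be compared for 894 circles, of which 34 (3.80%) were 2-fold or more above the prenatal range and 47 (5.26%) below it. Its median was 0.0429, 0.0481, 0.0673 and 0.0493 in stage order, so the alveolar library lay between the canalicular and terminal sac ones. It shares its junction reads with the rule for the shares, so the overlap with those calls is a description: of 65 share-lower circles 29 were also lower by ratio, and of 33 share-higher circles 9 were higher. Strn3 exons 2 to 16 had ratios of 0.0981, 0.116, 0.137 and 0.0119, which is 8.11-fold lower in odds (3.05 to 21.6). Hdgfl3 had 0.289, 0.257, 0.528 and 0.0602 (4.98-fold, 2 to 12.4), Hipk3 was 3.13-fold lower (2.11 to 4.64) and Zfp516 4.53-fold (1.92 to 10.7). For these 4 circles the raw alveolar linear count lay within its prenatal range, without scaling for library size. The summed linear reads of the libraries were 2940865, 3128355, 3799337 and 2852933 in stage order. Hipk3 had 605 alveolar linear reads beside 607 in the terminal sac library, the largest by this sum.

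The ratio also set apart circles that the share did not. Ldb2, a LIM-domain-binding co-factor gene, had 13, 13, 12 and 5 junction reads for exons 1 to 5 beside 264, 447, 370 and 928 linear reads, 5.09-fold lower in odds (1.88 to 13.8). The ends of this Ldb2 circle are not both at exon boundaries. Snrk, an AMPK-related kinase gene, had 52, 100, 145 and 54 junction reads for exons 2 to 3 and was 2.24-fold lower in odds (1.59 to 3.15). In the other direction, Baz1b, a chromatin remodeller gene, had ratios of 0.0206, 0.0183, 0.0130 and 0.0609 for exons 7 to 9 (3.07-fold, 1.56 to 6.07), with junction reads of 16, 12, 4 and 17. Marf1 exons 11 to 12 was 2.88-fold higher (1.38 to 6.03), Rmdn2 exons 3 to 10 3.77-fold (1.48 to 9.56), Rmdn2 exons 3 to 5 2.05-fold (1.34 to 3.12) and Trappc11 exons 11 to 15 2.15-fold (1.12 to 4.15). The rank by ratio was led by the higher Kansl1l circle, 7.71-fold (2.39 to 24.8), which passed the read minimum through its alveolar reads. Except for that circle and Rmdn2 exons 3 to 10, none of the circles in this paragraph was called by share.

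The place where a circle starts in its transcript was not used by the rule and is given as a description. Among circles with both ends at exon boundaries, 53 of 77 lower circles (68.8%) started at exon 2, against 22 of 110 higher circles (20%) and 724 of 1764 compared (41%). Among circles listed in all 3 prenatal libraries, which a lower call requires, 47.5% started at exon 2. A start beyond exon 10 was found in 30 higher (27.3%), 4 lower (5.19%) and 236 of all circles compared (13.4%). Without repeat-end and few-pattern circles the share of higher circles starting at exon 2 was 20.4%. Spliced length differed less, with medians of 551 bases for higher, 630 for lower and 614 for all. The genomic span between the ends had medians of 5698, 11838 and 9487 bases.

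**Figure D5:**
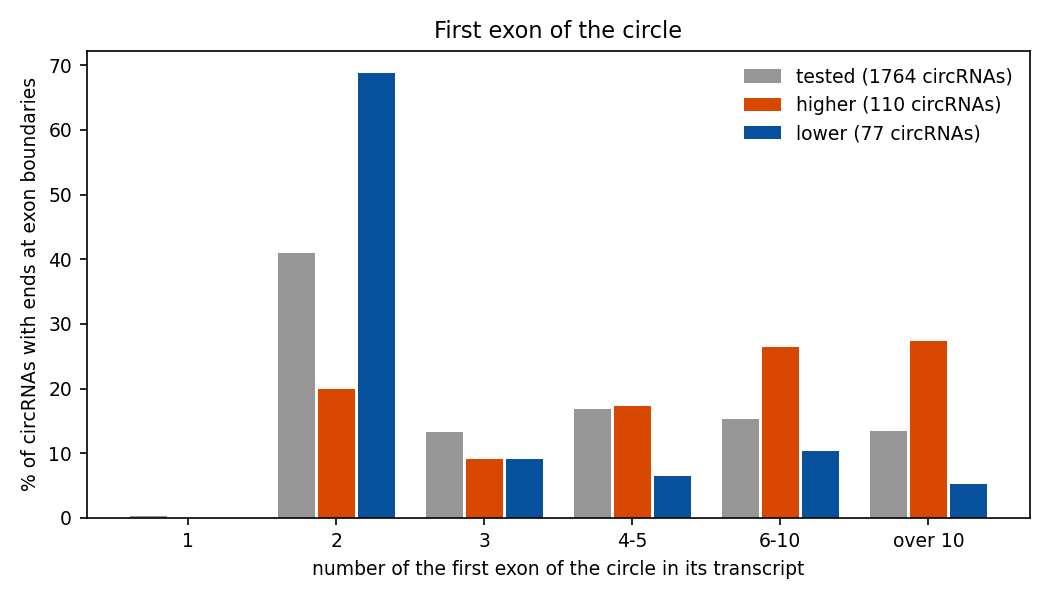
Percentage of circRNAs with both ends at exon boundaries by the number of their first exon in the transcript, for all circles compared (1764), higher circles (110) and lower circles (77). Lower circles peak at exon 2 with 68.8%, and higher circles are spread over exons 2 to over 10.

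Summed per host gene, 129 hosts (6.96%) were higher and 82 (4.42%) lower, with the interval excluding 1 for 54 and 29. Of the higher hosts 56 hold a higher circle, and of the lower hosts 36 hold a lower circle, and the rest were called on their summed reads. Rfx3, a transcription factor of ciliogenesis, is a host without a called circle, with 21, 19, 23 and 2 reads over 11 circles (8.62-fold lower, 2.08 to 76.3). Zfp638, a zinc-finger gene, had 38, 51, 50 and 10 (3.92-fold, 1.96 to 8.67), and Phkb, a phosphorylase kinase subunit gene, 19, 24, 32 and 4 (5.18-fold, 1.72 to 20.9). The order of the leading higher hosts was close to that of the circles, with Eln 41.7-fold (31.5 to 56.2), Hmcn1 17.2-fold (6.44 to 64.7), Col1a2 9.22-fold (5.59 to 16.2) and Adgrl3 3.17-fold (2.03 to 5.06). Without repeat-end and few-pattern circles Eln had 3, 2, 12 and 13 reads, Hmcn1 4, 0, 2 and 7, and Col1a2 0, 0, 0 and 2, whereas Adgrl3 kept its 18, 20, 29 and 72.

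Signalling lists had few calls, where 6.96% of all hosts compared were higher and 4.42% lower. In the Wnt list 2 of 12 hosts were lower and 0 higher: the co-receptor gene Lrp6 with 90, 86, 97 and 37 reads (2.05-fold, 1.39 to 3.09) and Ctnnb1, the beta-catenin gene, with 23, 22, 13 and 0 (at least 3.4-fold). Its median was -0.70, or 0.14 with unlisted hosts at their bound, so its sign depends on unlisted hosts. In the TGF-beta and BMP list 1 of 11 hosts, Smad6, was higher, with a median of -0.12 (0.24 at the bound). In the list of FGF, Hedgehog and Notch signalling 0 of 7 were called, with a median of 0.50 (0.55 at the bound). These 3 lists held 0.505%, 0.660% and 0.431% of alveolar reads, against prenatal ranges of 0.631% to 0.820%, 0.559% to 0.789% and 0.377% to 0.509%. Of 21 RNA-binding hosts 0 were called, with 0.752% of alveolar reads against 0.979% to 1.07% before and a median of -0.41 (-0.50 at the bound). Among foetal growth genes 1 of 6 was lower, the receptor gene Igf2r with 11, 5, 10 and 2 reads. The foetal growth list held 0.339% against 0.260% to 0.493%, with a median of -1.95 (-0.46 at the bound).

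Markers of other cells had few reads or few calls, where 6.96% of all hosts compared were higher and 4.42% lower. Of 4 immune hosts 0 were called, and their list held 0.0385%, 0.173%, 0.205% and 0.0706% of reads, with the alveolar share inside the prenatal range and a median of -0.84 (-0.92 at the bound). Of 3 erythroid hosts 1 was lower, the red-cell membrane gene Epb41 with 12, 25, 17 and 5 reads (2.62-fold, 0.858 to 9.48), and the list held 0.0616%, 0.231%, 0.102% and 0.0318%, with a median of -1.32 (-0.60 at the bound). Of 4 cardiac and striated-muscle hosts 0 were called, with 0.226% of alveolar reads inside a prenatal range of 0.128% to 0.454% and a median of 0.40 (-0.07 at the bound). Neural hosts had 2, 12, 14 and 5 reads and cartilage hosts 0, 12, 9 and 0, and mesothelial markers had 2 reads in all, in the canalicular library. The last 3 lists had too few hosts for a median.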

How the data were processed

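Per the labels' protocols, TRIzol extracts of C57BL/6 mouse lung gave the total RNA, with 1 library per stage. The submitters' processing notes name cutadapt, BWA, HISAT2 2.0.5, StringTie, HTSeq and mm10 without saying what each did, and the sources used here give neither the caller nor its filters. The deposited values per circRNA are raw counts of junction and of linear reads, per the file headers, with a minimum of 2 junction reads. The deposited junction ratio is a fraction. Alignment patterns were deposited as text and counted here, which gives a score of how varied the junction reads of a circle are.

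Shares, folds, exact conditional binomial 95% intervals and Woolf intervals of junction odds with 0.5 added were computed in Python 3.11.15 (numpy 2.4.6, scipy 1.17.1 and pandas 2.3.3) and drawn with matplotlib 3.10.9. List medians are of log2 shares with 0.5 reads added. Exons, strands and sequences come from GENCODE M21 (GRCm38), in which 4590 of 4647 deposited host identifiers were found singly, and 491 circRNAs have no deposited host. The script of the range rule was tested on simulated data.

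Circles are named as the leading 15 per direction, ranked by the interval end nearest to 1, a gene once per direction and circles without a deposited host left out. Hosts are the leading 10 per direction and ratios the leading 6, and up to 4 members of each of 22 gene lists are named by reads, besides the members called. The circles, lists and rules were chosen with earlier results of these data known. The alternatives were other read minimums, folds, bounds for unlisted circles, scalings, pooling, merging, exon-type circles alone, removal of repeat-end and few-pattern circles and leaving out each prenatal library.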

Additional observations from a re-analysis of the deposited data

How the results depend on the processing

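No paired analysis was possible because each stage has 1 library, and there is no replicate check. The counts rest on the read minimum, the fold and the prenatal range. With 20 or more reads 60 circRNAs and 62 hosts were higher. With a 3-fold threshold 49 circRNAs were higher and 29 lower, 49 hosts higher and 30 lower, and 6 junction ratios higher and 18 lower. With intervals excluding 1 the counts were 54 and 21, 54 and 29, and 13 and 15. With unlisted circles at 1 read 224 circRNAs and 203 hosts were lower. With prenatal reads pooled into 1 library 345 circRNAs were higher and 307 lower, and 314 hosts higher and 319 lower. Among circles listed in all 4 libraries 33 were higher. Leaving out 1 prenatal library in turn narrows the range and gave 179 to 200 higher and 132 to 167 lower circRNAs, 185 to 198 higher and 142 to 166 lower hosts, and 41 to 101 higher and 59 to 91 lower ratios. Without the pseudoglandular, canalicular and terminal sac library in turn the lower circRNAs were 147, 132 and 167 and the lower hosts 142, 156 and 166. Without the terminal sac library 200 circRNAs, 198 hosts and 101 ratios were higher. The ratio counts were 52 higher and 84 lower without the canalicular and 91 lower without the pseudoglandular library.

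List shares without repeat-end and few-pattern circles take these circles out of the list and of the library totals. They made up 11.6% of alveolar reads and 2.65% to 4.18% of prenatal reads, so the alveolar total is reduced most. The alveolar over median prenatal share of type 2 hosts was 25.2 with all circles and 4.35 without repeat-end and few-pattern circles. With all circles that median is the canalicular share of 0.109%, while the terminal sac share was 1.32% and the alveolar one 2.75%. Without repeat-end and few-pattern circles the terminal sac and alveolar shares were 0.309% and 0.487%. For matrix hosts the value was 4.32 with all circles and 1.96 without repeat-end and few-pattern circles. It was 2.13 without the Eln circle, an alternative chosen after seeing the data. The TGF-beta and BMP value turned from just under 1 to 1.04 without repeat-end and few-pattern circles and to 1.06 without the Eln circle in the library size. Both settings reduce the alveolar total by more than the prenatal totals, which in itself raises alveolar shares. Nothing is read from this turn, and it was not tested further. The 30 named circles kept their call under merging and both other scalings. Pooling could not change these calls, since a pooled prenatal share cannot lie beyond the prenatal range, and nothing is read from that setting. Of the other settings on the 8 counts and shares tried for the main comparisons, 42 stayed within 1.5 times or the counting error. The other 36 moved beyond that.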

Other observations

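Hosts with several higher circles were Pde5a, Adgrl3, Col1a2, Col4a1, Gfra2, Hmcn1, Lamp3 and a joint locus that GENCODE M21 places on Myzap, 8 in all. Gfra2, a co-receptor gene for GDNF-family ligands, had 0, 0, 6 and 14 reads for exons 2 to 4 (2.98-fold, 1.07 to 9.45). This Gfra2 circle passed the read minimum only through its alveolar reads, and unlisted stages barred a lower call. Hosts with several lower circles were Strn3, Ezh2, Atrnl1, R3hcc1l and Kansl1l, 5 in all. Among higher circles the prenatal shares rose at each stage in 28 of 126 and fell at each stage in 7, and among lower circles they rose in 11 of 83 and fell in 19. Over all 1977 circles compared they rose in 320 and fell in 288. An intronic circle of Efnb2, the gene of the vascular ligand ephrin-B2, had 5, 5, 9 and 23 reads, 3.26-fold above the terminal sac share (1.45 to 8.01).

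Many circles lay close to the threshold. From 2 to under 2.2-fold there were 26 higher and 17 lower circles, and 42 and 34 lay from 1.8 to under 2-fold outside it. Ppp1r9a stood just inside at 2.006-fold higher (16, 10, 16 and 35 reads) and Atrnl1 just outside at 1.987-fold (6, 7, 3 and 13). Csnk1g3 stood just inside at 2.042-fold lower (10, 9, 12 and 4), and Boc, a Hedgehog co-receptor gene, just outside at 1.959-fold (17, 11, 5 and 2).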
